A study of Mus musculus with 4 samples.

Results

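Of the 9243 distinct m6A regions compared between *Mettl3* flox/flox and BKO interscapular brown adipose tissue (iBAT), 1159 were placed outside annotated gene bodies. A region was counted here when all of its rows in the comparison table carried either no gene or the word Intergenic, and its measured values played no part in the choice. No gene was named for 1058 of them, and the other 101 were labelled Intergenic next to a named gene. The remaining 8084 regions had at least 1 row inside a gene body.

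The study set a brown-fat-specific loss of the m6A writer against its floxed control in C57BL/6 mice kept on normal chow and killed at 8 weeks of age. Both genotypes carried the floxed *Mettl3* allele on both chromosomes, and BKO mice carried in addition *Ucp1*-iCre, which is driven by the *Ucp1* promoter and so acts in brown adipocytes, not in the vessels, nerves and immune cells of the same depot. Each genotype gave 1 library of immunoprecipitated RNA (IP) and 1 of input RNA from pooled mice, so there is no replicate and no test between genotypes. Intervals below cover counting error, or the spread between regions, in these 4 libraries only. The listed regions included all 7 brown fat markers looked for (*Ucp1*, *Prdm16*, *Pparg*, *Cidea*, *Adipoq*, *Fabp4* and *Plin1*). *Mettl3* itself had 0 rows, which leaves the genotype labels unchecked by the targeted gene. In such bulk tissue, fewer cells of a type and less RNA per cell cannot be told apart.

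N6-methyladenosine is written on nascent mRNA by a complex whose catalytic subunit is METTL3. The mark gathers around stop codons and along 3′ untranslated regions, while an antibody to m6A also recognises the related m6Am next to the cap at the first transcribed base, which another enzyme writes. A peak can fall outside a gene body when a transcript runs past the end recorded in an annotation, starts upstream of the recorded start, or comes from a non-coding RNA that the annotation lacks.

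Sequences are shown for a region directly before a known start site and for microRNAs beside a region, because position along the transcript set apart some of the groups described below. *Pigl*, an enzyme of GPI-anchor synthesis, had a region with higher enrichment in BKO that covered all 250 bases before its RefSeq start (GRCm38.p6, plus strand, chr11:62458191-62458440). They are printed 5′ to 3′ in the gene's sense, with the GGACT form of the m6A consensus, read on both strands (so also as AGTCC), in capitals. The only match is AGTCC, so the consensus lies on the strand opposite to *Pigl* and not in its sense sequence.
Pigl: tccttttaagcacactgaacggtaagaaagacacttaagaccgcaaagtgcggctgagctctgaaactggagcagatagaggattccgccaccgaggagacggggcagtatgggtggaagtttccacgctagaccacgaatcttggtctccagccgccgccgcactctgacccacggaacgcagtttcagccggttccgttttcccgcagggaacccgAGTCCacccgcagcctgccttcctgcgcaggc
Of the 116 RefSeq promoter windows that lay under these regions, 48 (41.4%) held the 5 letters on either strand in the 250 bases before the transcript start that the window was built on, which can lie inside a longer form of the gene, against 12794 of all 32851 windows (38.9%). These counts do not separate the gene's own strand from the opposite one.

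From the miR-23b, miR-27b and miR-24 cluster, the mature arms listed in the RefSeq table used here are shown (for miR-23b the 5p arm), since the region beside a microRNA with the most IP reads lay just after it, with bases 2 to 8 (the seed) in capitals. In mouse adipocytes miR-27b is known as a repressor of brown fat genes, *Prdm16* among them.
mmu-miR-23b-5p: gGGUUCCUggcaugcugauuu
mmu-miR-27b-5p: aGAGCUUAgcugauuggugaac
mmu-miR-27b-3p: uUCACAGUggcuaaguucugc
mmu-miR-24-1-5p: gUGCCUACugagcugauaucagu
mmu-miR-24-3p: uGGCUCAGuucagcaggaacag
The 5 RefSeq sequences have 5 different seeds.

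Libraries held 8309098 (flox/flox IP), 8826904 (flox/flox input), 13687380 (BKO IP) and 13394053 reads (BKO input), as implied by the deposited counts and RPM. The regions outside gene bodies took 4.78% of the flox/flox IP library and 0.56% of its input, against 2.12% and 0.788% in BKO. Their share of the IP library was thus smaller in BKO while their share of the input was larger. Depth at single regions was low, with a median of 120 reads in flox/flox IP, 10 in flox/flox input, 110 in BKO IP and 26 in BKO input. In 97 regions neither input library had a read, and 392 of the 1159 had 20 or more input reads in each genotype.

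Fold enrichment is the IP value divided by the input value, and each region's log2 ratio sets the fold enrichment in BKO over that in flox/flox. The median fold enrichment outside gene bodies was 10.6 in flox/flox and 3.33 in BKO, and the median log2 ratio was −1.67 (95% interval over regions, −1.83 to −1.52). The IP signal fell by a median of 1.46 on the log2 scale, whereas the input was higher by 0.33. Over all listed regions the median log2 ratio was −1.05, and in gene bodies it was −0.94. With 20 or more input reads in each genotype the medians were −1.30 outside gene bodies (n = 392) and −1.03 inside them (n = 4131), so the gap was smaller where depth was adequate. No region outside gene bodies was listed with a fold enrichment under 1 in either genotype, which bounds how far a ratio could move.

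The counting interval of the log2 ratio lay below 0 in 512 of the 1159 regions (44.2%), beside 44.6% of all listed regions. It lay above 0 in 86 (7.42%), beside 12% of all. Measured from 0 over all depths, the share with a clear decrease was thus at the background of the table, and the share with a clear increase was under it. With 20 or more input reads in each genotype, decreases were 60.7% (55.8 to 65.4) against 57.3% of all regions at that depth. Increases were 14.3% (11.2 to 18.1) against 16.8%, so both background shares lay within the intervals. Measured from the median of all listed regions instead, the median log2 ratio outside gene bodies was −0.62. There 287 intervals lay below that reference and 202 above, and the same counts over all listed regions were not made. A peak was called in flox/flox in 877 regions (75.7%, Wilson 95% interval 73.1 to 78.1), beside 67.6% of all regions, and in BKO in 607 (52.4%, 49.5 to 55.2), beside 70.6% of all. With 20 or more input reads in each genotype, the flox/flox share was 82.1% against 81.8% of all regions at that depth, so the higher share in flox/flox was seen only with thinly covered regions included, and the BKO share was 71.7% (67 to 75.9) against 77.1%. Gene-body introns had shares like those outside gene bodies, 72.4% called in flox/flox and 53.5% in BKO. Calls and ratios come from the same reads, and are not separate evidence.

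Regions with no gene named and regions labelled Intergenic were alike in the median but not in make-up. The 1058 with no gene named had a median log2 ratio of −1.69 (−1.85 to −1.53), with 468 intervals below 0 and 70 above. The 101 labelled Intergenic had a median of −1.45 (−2.04 to −1.15), with 44 below 0 and 16 above. Of the Intergenic regions, 58 were at the 3′ edge of the named gene, 39 at a 5′ edge, 3 touched both kinds of edge and 1 neither.

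**Figure D1:**
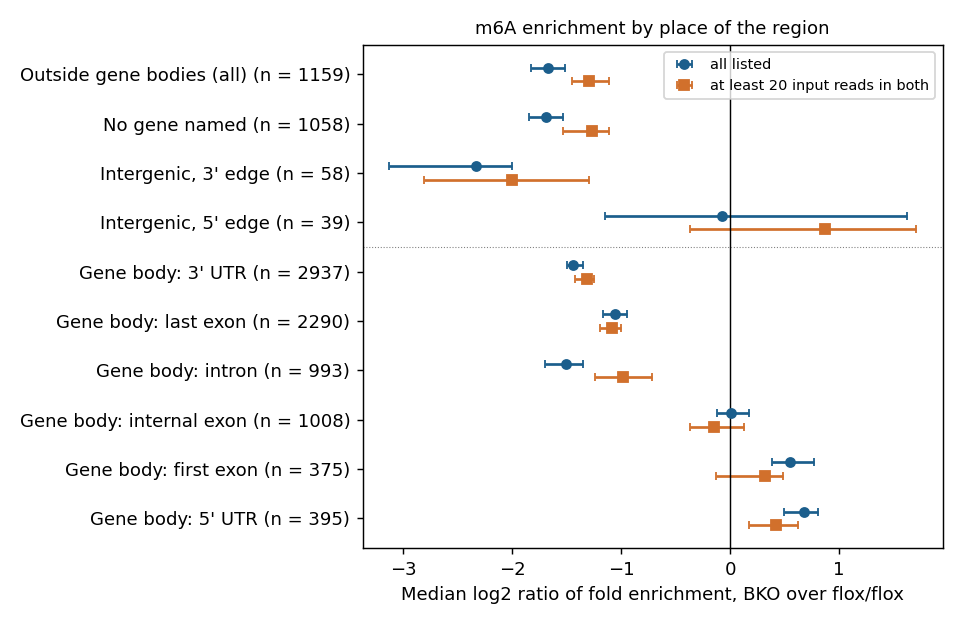
Median log2 ratio of fold enrichment (BKO over flox/flox, horizontal axis) for regions outside gene bodies (above the dotted line) and for regions in gene bodies by annotated place (below it). Circles stand for all listed regions and squares for those with 20 or more input reads in each genotype, and bars are 95% order-statistic intervals over regions. Intergenic regions at a 3′ edge sit at −2.33 and those at a 5′ edge at −0.07, on either side of the median of all regions.

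The side of the gene separated the Intergenic regions. At the 3′ edge the median fold enrichment dropped from 14.2 to 2.51 in BKO, the median log2 ratio was −2.33 (−3.13 to −2.0), and 53 of 58 regions (91.4%) were lower in BKO. Of all listed regions 66.6% were lower, and of gene-body 3′ UTR regions 75.7%. Intervals lay below 0 in 37 of these 58 and above 0 in 3. At the 5′ edge it was 3.83 against 4.65 in BKO, and the median of the log2 ratios was −0.07 (−1.15 to 1.63), 6 intervals being below 0 and 13 above. The intervals of the 2 medians did not overlap, nor did they with 20 or more input reads in each genotype, where the 3′ edge gave −2.0 (−2.81 to −1.30, n = 29) and the 5′ edge 0.87 (−0.37 to 1.71, n = 17). Inside gene bodies the medians were −1.44 in 3′ UTRs, 0.55 in first exons and 0.68 in 5′ UTRs. Over all depths introns had the lowest gene-body median, −1.51 (−1.70 to −1.35, n = 993), with fold enrichments of 10.1 and 3.42, close to those of regions outside gene bodies. With 20 or more input reads in each genotype introns were not the lowest. They gave −0.98 (−1.24 to −0.72, n = 332), against −1.31 (−1.42 to −1.25, n = 1772) in 3′ UTRs.

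The label of the larger class did not match a second annotation. Laid over RefSeq genes (GRCm38.p6), 750 of the 1058 regions with no gene named had their centre inside a gene, in 643 distinct genes. Protein-coding genes held 627 of the 750 and long non-coding RNA genes 101. Another 98 lay upstream and 115 downstream of the nearest gene, 91 lay beside a gene of unknown strand, and 4 lay on contigs outside the RefSeq table. For 324 of the regions inside a gene, the comparison table itself gave bounds for that gene, and 207 of these lay past its 3′ end there (by a median of 4677 bases, from 161 to 229433), 117 before its start and 0 within. The 0 within follows from the rule that chose these regions and is not separate evidence. Thus 750 of the 1058 had no gene in the authors' annotation but a centre inside the span of a RefSeq gene, introns included. The strand of the reads is unknown, and whether they came from transcripts of those genes was not tested. Another 304 lay outside every RefSeq gene. Of the 101 Intergenic regions, 78 also had their centre inside a RefSeq gene.

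Inside genes of known strand, regions with no gene named had their lowest median close to the RefSeq 3′ end. Outside genes, those within 5 kb upstream had a median of −2.76 (−3.20 to −2.14, n = 75), on thin input described below. Of the 648 regions inside a gene of known strand, 214 were centred within 500 bases of its 3′ end. Their median fold enrichment dropped from 11.3 to 1.85 in BKO, and the median log2 ratio was −2.37 (−2.52 to −2.19). Of the 214, 209 were lower in BKO (as were 66.6% of all listed regions), 170 (79.4%) had an interval below 0 and 3 above. The IP signal of these regions fell by a median of 2.09 on the log2 scale and the input was higher by 0.46. The 193 regions from 501 to 5000 bases before the 3′ end had a median of −1.06 (−1.26 to −0.57), with 88 intervals below 0 and 22 above. The 68 regions within 1000 bases of a start had a median of −0.41 (−1.06 to 0.57), with 17 below 0 and 14 above. With 20 or more input reads in each genotype, 17 of them had a median of 1.09 (0.12 to 1.47). Of these 17, 13 were higher in BKO, beside 29.6% of all listed regions at that depth. The 173 regions elsewhere in a gene had a median of −1.39 (−1.78 to −1.0), whose interval overlapped that of the regions 501 to 5000 bases before the end.

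Regions that the table did place in a gene body gave close values at the same places near the 3′ end. Within 500 bases of the RefSeq 3′ end, 1746 gene-body regions had a median log2 ratio of −2.27 (−2.36 to −2.18), 1673 of them were lower in BKO, and 81.7% had an interval below 0. The interval of that median overlapped the one for regions with no gene named. From 501 to 5000 bases before the end the gene-body median was −0.42 (−0.52 to −0.34, n = 3049), and elsewhere it was −0.33 (−0.52 to −0.19, n = 1474). In these 2 places the regions with no gene named were lower than gene-body regions, beyond the intervals of both medians, over all depths. With 20 or more input reads in each genotype the intervals overlapped in both places, at −0.79 (−1.17 to −0.22) against −0.43 (−0.54 to −0.34) and at −1.07 (−1.76 to −0.23) against −0.27 (−0.58 to 0.02). Near starts the gene-body median was 0.49 (0.35 to 0.65, n = 772), against the −0.41 above, with overlapping intervals. With 20 or more input reads in each genotype the order was reversed, at 0.09 (−0.14 to 0.40, n = 280) in gene bodies against 1.09 (0.12 to 1.47, n = 17). Those intervals overlapped as well.

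**Figure D2:**
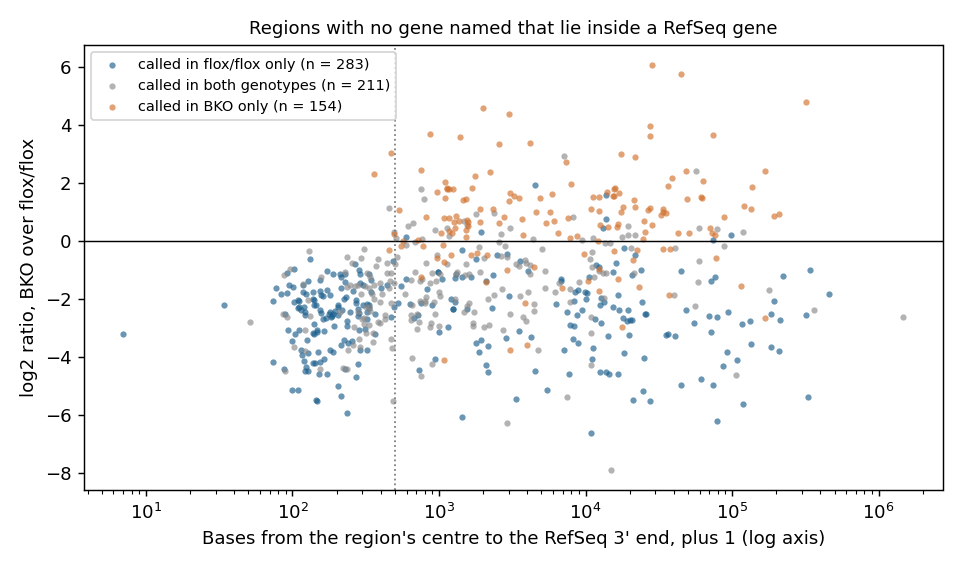
Log2 ratio of fold enrichment (BKO over flox/flox, vertical axis) of the 648 regions with no gene named inside a RefSeq gene of known strand, against the distance from the region's centre to the gene's 3′ end in bases (log axis). Colours give the genotype in which a peak was called, and the dotted line marks 500 bases. To the left of it 209 of 214 regions are below 0, beside 66.6% of all listed regions, and to the right of it both signs occur.

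Peaks called in 1 genotype only had different positions. Of the 509 regions with no gene named that were called in flox/flox only, 137 (26.9%) were within 500 bases of a RefSeq 3′ end, as were 73 of the 289 called in both (25.3%). Of the 260 called in BKO only, 4 were (1.54%), although 182 of them (70%) lay inside a gene. The 3 classes had median input reads of 6, 31 and 6 in flox/flox and of 9, 82 and 28 in BKO, in the order flox/flox only, both and BKO only. Gene-body regions showed a like pattern, so it was not particular to regions with no gene named. In gene bodies, 837 of 2168 called in flox/flox only were within 500 bases of a RefSeq 3′ end. So were 834 of 3202 called in both and 75 of 2714 called in BKO only.

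Where the same gene also held a gene-body region, the pair often differed. Such a pair existed for 143 of the 643 genes, taking the gene-body region with the highest fold enrichment. The region with no gene named was lower in BKO together with its gene-body partner in 69 pairs, and both were higher in 13. In 44 pairs only the former was lower and in 17 only the gene-body region was. The median log2 ratios were −2.05 and −0.52, and Spearman's rho across the 143 genes was 0.0447, with both values of a pair read from the same 4 libraries. In the 19 pairs with 20 or more input reads in each genotype at both regions, rho was −0.681 and the medians were −1.07 and 0.14.

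The largest decreases near 3′ ends rested on many flox/flox IP reads. The region 204 bases before the end of *Fastkd1*, a member of a family of mitochondrial RNA regulators (chr2:69686805-69687244), had 1577 reads in flox/flox IP, 44 in flox/flox input, 84 in BKO IP and 70 in BKO input. Its fold enrichment went from 37.3 (24.5 to 56.6) to 1.17 (0.75 to 1.83), a log2 ratio of −4.99 (−5.87 to −4.11). The input was nearly equal, and the loss lay in the IP. At *Anapc7*, a subunit of the anaphase-promoting complex (chr5:122443806-122444503, 758 bases before the end), the reads were 1218, 20, 364 and 144 in that order of libraries, which is kept below, with a log2 ratio of −4.65 (−5.61 to −3.68). At *Tmem192*, a lysosomal membrane protein (chr8:64968648-64969083, 171 bases before the end), they were 958, 26, 218 and 134, with a log2 ratio of −4.57 (−5.47 to −3.68). In these 2 regions the BKO input was higher as well as the IP lower.

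Among the highest fold enrichments in flox/flox were regions near the ends of *Mrpl52*, a mitochondrial ribosomal protein (chr14:54429466-54429859), and *Bnip1*, a SNARE of the endoplasmic reticulum (chr17:26791986-26792584). *Mrpl52* had 2370 and 36 reads in flox/flox IP and input and 436 and 140 in BKO, so its fold enrichment was 68.1 and 3.03. *Bnip1* had 1706 and 26 against 394 and 120, for fold enrichments of 67.2 and 3.19. Both were still called in BKO.

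Of the regions with no gene named, the one with the most input was 1493 bases before the end of *Acsl1*, the main acyl-CoA synthetase of adipocytes (chr8:46534321-46534796). It held 8988 reads in flox/flox IP, 2807 in its input, 7484 in BKO IP and 4909 in BKO input, with fold enrichments of 3.40 and 1.49 and a log2 ratio of −1.19 (−1.30 to −1.08). At *Dbi*, the acyl-CoA-binding protein (chr1:120113266-120113607), the reads were 5770, 2330, 4799 and 4220, and the log2 ratio was −1.24 (−1.37 to −1.11). Both ratios were close to the median of the whole table and had the narrowest intervals among the decreases named here. The third, over the pseudogene *Gm50432*, had 3260, 1897, 3165 and 1505 reads and a log2 ratio of 0.17 (0.00 to 0.34).

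The 3′-edge Intergenic regions held decreases of like size. Beside *Psme1*, the alpha subunit of the proteasome activator, and 20 bases from the end of *Emc9* (chr14:55581273-55581805), reads were 1705 in flox/flox IP, 74 in its input, 320 in BKO IP and 293 in BKO input. Fold enrichment dropped from 24.2 (17.4 to 33.5) to 1.07 (0.854 to 1.34) in BKO, for a log2 ratio of −4.50 (−5.07 to −3.93). *Ipo4*, a nuclear import receptor (chr14:55625618-55626056), gave −4.39 (−5.25 to −3.54) from 970, 48, 82 and 80 reads. At both, the interval of the BKO fold enrichment included 1. *Nudt13*, a Nudix hydrolase (chr14:20316284-20316811), gave −3.93 (−4.48 to −3.39) from 2690, 92, 400 and 194 reads, and *Poldip2*, a DNA polymerase delta partner (chr11:78522309-78523239), −3.81 (−4.12 to −3.49) from 4668, 305, 782 and 661. The *Poldip2* region was also labelled for *Tnfaip1*, and its centre lay 38 bases past the RefSeq end of *Poldip2*. The region labelled for *Mars*, the methionyl-tRNA synthetase, lay 144 bases from the end of *Ddit3*, a transcription factor of the stress response (chr10:127295815-127296480). It had 2895, 87, 555 and 201 reads and fold enrichments of 35.0 and 2.69, and its overlap with 2 genes leaves the source of the reads unassigned.

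The 3 Intergenic regions with the most input were beside *Rpl29*, *Pabpn1* and *Cisd3*. *Rpl29*, a ribosomal protein (chr9:106431286-106431558), had 4609, 1443, 1842 and 1211 reads and a log2 ratio of −1.19 (−1.38 to −1.0). *Pabpn1*, the nuclear poly(A)-binding protein (chr14:54897951-54898445, also labelled for *Gm20521*), had 2937, 332, 1280 and 351 reads and a ratio of −1.40 (−1.73 to −1.06). The region between *Cisd3*, a mitochondrial iron-sulfur protein, and *Mllt6* (chr11:97685369-97686257) had 2629, 380, 510 and 187 reads and a ratio of −1.46 (−1.87 to −1.06). All 3 were lower in BKO, with intervals that lay well above that of *Psme1*.

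**Figure D3:**
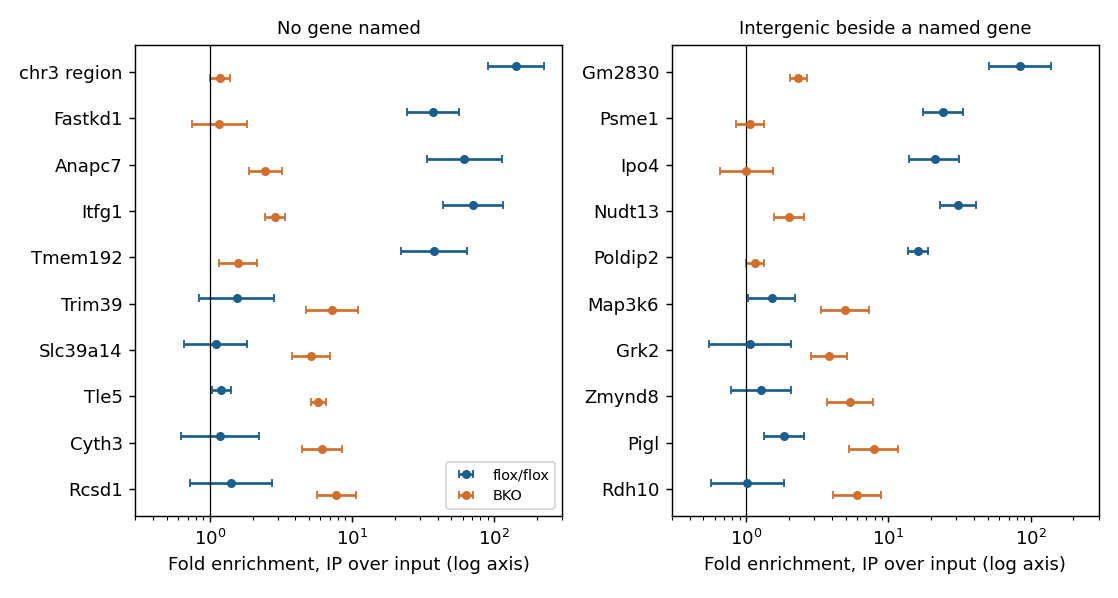
Fold enrichment (IP over input, log axis) in flox/flox (blue) and BKO (orange) for the 5 largest decreases and the 5 largest increases among regions with 20 or more input reads in each genotype, with no gene named (left, by the RefSeq gene that holds or neighbours them) and labelled Intergenic (right). Points are single libraries and bars 95% counting intervals. In the decreases the 2 genotypes' bars are far apart with BKO near 1 to 3, and in the increases flox/flox lies near 1 to 2.

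Increases were smaller and rested on little flox/flox enrichment. The best covered was over *Tle5*, a member of the Groucho corepressor family (chr10:81559435-81559770), with 650 reads in flox/flox IP, 570 in its input, 3695 in BKO IP and 624 in BKO input. Fold enrichment rose from 1.21 (1.03 to 1.42) to 5.79 (5.13 to 6.52), a log2 ratio of 2.26 (1.97 to 2.54), with input of the same order in both genotypes. *Rcsd1*, a CapZ-interacting protein (chr1:165655325-165656038), had the largest at 2.47 (1.42 to 3.52), from 40, 30, 706 and 88 reads. *Cyth3*, an exchange factor for ARF GTPases (chr5:143707832-143708246), gave 2.38 (1.36 to 3.40) from 40, 36, 533 and 84. *Trim39*, a ubiquitin ligase (chr17:36260420-36260835), gave 2.23 (1.16 to 3.30) from 50, 34, 355 and 47. *Slc39a14*, a zinc and iron transporter (chr14:70306370-70306753), gave 2.23 (1.37 to 3.09) from 58, 56, 520 and 98. In all 5 a peak was called in BKO only.

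Of the 5 largest increases among Intergenic regions, 4 were at a 5′ edge. *Rdh10*, a retinol dehydrogenase of retinoic acid synthesis (chr1:16105424-16106013, 164 bases before the start), had 42 reads in flox/flox IP, 44 in its input, 356 in BKO IP and 57 in BKO input, and a log2 ratio of 2.57 (1.55 to 3.59). *Pigl*, whose upstream bases are printed above (region chr11:62457874-62458592), had 206, 118, 441 and 54 reads. Its ratio of 2.09 (1.36 to 2.82) came mostly from the input, which was lower in BKO by 1.72 on the log2 scale, while the IP was higher by 0.37. *Grk2*, the kinase that phosphorylates beta-adrenergic receptors (chr19:4305917-4306294), had 34, 34, 434 and 110 reads and a ratio of 1.85 (0.81 to 2.90), here with higher IP by 2.92. *Map3k6*, a stress-pathway kinase (chr4:133240413-133241167), had 127, 89, 308 and 60 and a ratio of 1.71 (0.93 to 2.50). The fifth, *Zmynd8*, a chromatin reader (chr2:165784896-165785719), was at a 3′ edge, with 70, 58, 362 and 65 reads and a ratio of 2.07 (1.19 to 2.96).

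Some regions kept strong enrichment in BKO. *Gjc1*, the gap-junction protein connexin 45 (chr11:102799682-102800819), had 463, 36, 1188 and 65 reads and the highest BKO fold enrichment of the Intergenic regions named by the rule, 17.6 (12.4 to 25) against 13.3 (8.30 to 21.4). *Rbbp6*, an RB-binding ubiquitin ligase (chr7:122970129-122970810), had 1651, 184, 2186 and 222 reads and fold enrichments of 9.49 (7.65 to 11.8) for flox/flox against 9.60 (7.90 to 11.7) for BKO, and its region also covers the start of *4930413G21Rik* on the other strand. Downstream of *Dram2*, a lysosomal regulator of autophagy (chr3:106576215-106576995, 1264 bases past the end), reads were 644, 38, 394 and 24 and fold enrichment was 17.6 (11.1 to 27.7) and 15.5 (8.73 to 27.4). The intervals of the 2 genotypes overlapped at all 3. At *Lamc3* (a laminin chain), *Cd46* (a complement regulator, 156 bases from its start) and *Gpr160* (an orphan receptor), BKO fold enrichments were 12.2, 11.1 and 10.2, with log2 ratios of −0.94 (−2.22 to 0.33), −0.68 (−1.85 to 0.49) and −0.88 (−1.71 to −0.04). In *D17H6S56E-5* (chr17:34997229-34999468) fold enrichment rose from 3.42 to 12.1 in BKO, on 118, 36, 2282 and 184 reads, with a log2 ratio of 1.82 (1.01 to 2.63). *Cbx7*, a Polycomb protein (6.72 in BKO, log2 ratio −0.18, −0.99 to 0.63), and *Cdk2ap2* (6.66, log2 ratio 1.71, 1.09 to 2.33) completed the highest BKO values among Intergenic regions.

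Among regions with 20 or more input reads in each genotype, the largest decrease far from any gene and the 2 largest over pseudogenes had unequal input. The largest decrease of all well-covered regions (chr3:5860247-5860902) lay 109279 bases from the nearest RefSeq gene, the pseudogene *Gm8797*. It had 5111 reads in flox/flox IP, 37 in its input, 654 in BKO IP and 537 in BKO input, and fold enrichment dropped from 143 (91.0 to 224) to 1.19 (1.01 to 1.40), for a log2 ratio of −6.91 (−7.60 to −6.21). Its IP fell by 3.68 and its input was higher in BKO by 3.22 on the log2 scale, so both libraries moved the ratio. The Intergenic region with the largest decrease, over the pseudogene *Gm2830* (chr13:54499494-54499882), gave −5.18 (−5.93 to −4.43) from 2467, 30, 1422 and 596 reads, with input higher by 3.67. The region over *Atp5k-ps1*, inside *Itfg1*, which encodes an integrin-type repeat protein (chr8:85824342-85824687) gave −4.62 (−5.36 to −3.87) from 2189, 32, 1086 and 369 reads, with input higher by 2.89. In all 3 the input differed between genotypes far more than the median input difference of 0.33. At that depth, the next largest decrease over 5 kb from any gene (chr11:78995762-78996303, 11108 bases upstream of *Lgals9*) had near-equal input, with 418, 22, 30 and 28 reads and a ratio of −4.21 (−5.55 to −2.87). Reads over a pseudogene can stem from a near-identical parent gene, so these regions are uncertain; 29 regions with no gene named and 14 Intergenic ones overlapped a RefSeq pseudogene.

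Regions truly away from RefSeq genes were thinly covered. The 131 regions more than 5 kb from any gene had median input reads of 2 in flox/flox and 0 in BKO, and 48 of them had none in either. Their median log2 ratio was −1.46 (−2.06 to −0.07), with 27 intervals below 0 and 5 above, and 10 had 20 or more input reads in each genotype. Within 5 kb downstream of a gene, 62 regions had a median of −1.67 (−2.66 to −0.68). Within 5 kb upstream, 75 regions had a median of −2.76 (−3.20 to −2.14), on median input reads of 5 and 6. Of these, 68 of 75 were lower in BKO, beside 66.6% of all listed regions. A peak was called at 69 of these 75 in flox/flox and at 15 in BKO, beside 67.6% and 70.6% of all listed regions. With 20 or more input reads in each genotype 10 upstream regions remained, with a median of −2.15 (−2.78 to 0.40). Of these 10, a peak was called at 8 in flox/flox and at 7 in BKO. Where neither input had a read, the 1 read added to each count sets the input log2 ratio at −0.60, which was the median of the 304 regions outside every RefSeq gene.

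**Figure D4:**
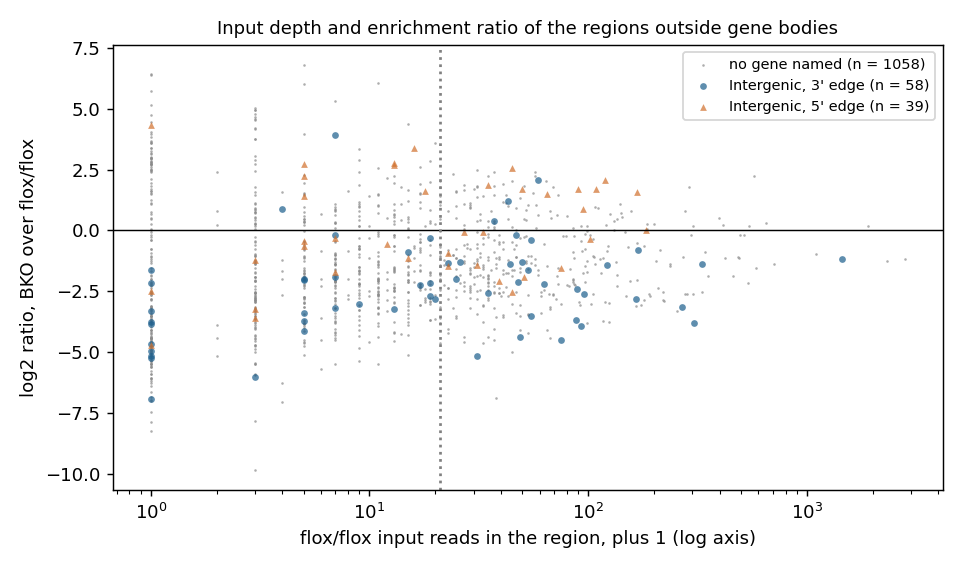
Log2 ratio of fold enrichment (vertical axis) of the regions outside gene bodies against their flox/flox input reads plus 1 (log axis). Grey dots are regions with no gene named, blue circles Intergenic regions at a 3′ edge and orange triangles those at a 5′ edge, with the dotted line at 20 input reads. The spread is widest where the input is lowest, and 53 of the 58 3′-edge regions are below 0, beside 66.6% of all listed regions.

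Genes of the fat, m6A and cell-type marker lists were looked up among the regions outside gene bodies. Of all 9243 listed regions 1159 were of this kind. No share over all genes was taken, so the counts are a description only. Of 58 brown fat genes, 37 had any listed region and 3 were beside or held one outside gene bodies. At the 5′ edge of *Prdm16*, the zinc-finger regulator that commits cells to the brown fat lineage (chr4:154636833-154637379), the reads were 653 in flox/flox IP, 74 in its input, 28 in BKO IP and 8 in BKO input. Fold enrichment was 9.26 (6.61 to 13) against 3.15 (1.10 to 9.08) in BKO, for a log2 ratio of −1.55 (−3.16 to 0.05), whose interval included 0. The region also reaches the upstream bases of *Prdm16os*, on the other strand. Both libraries lost signal there, the IP by 5.22 and the input by 3.66 on the log2 scale. Upstream of *Cebpd*, an early adipogenic transcription factor (chr16:15886758-15886964, 425 bases before the start), reads were 68, 4, 6 and 4 and the ratio was −3.42 (−6.41 to −0.43). In *Plin2*, a lipid-droplet coat protein (chr4:86648377-86648621), they were 108, 44, 50 and 26 with a ratio of −0.48 (−1.66 to 0.71).

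Of 19 genes of the m6A machinery, 8 had any listed region and 3 had one here. The region 579 bases upstream of the reader *Ythdf2* (chr4:132212617-132213053) had 203, 10, 28 and 8 reads and a ratio of −2.64 (−4.61 to −0.68). In *Rbm15*, a writer-complex subunit that binds RNA (chr3:107325970-107326242), reads were 93, 12, 50 and 42 and the ratio was −2.73 (−4.17 to −1.28). Near the end of *Wtap*, the writer-complex adaptor (chr17:12967516-12968011), they were 122, 38, 441 and 178, the ratio was −0.47 (−1.29 to 0.34), and both IP and input were higher in BKO. The gene-body regions with the highest fold enrichment in *Rbm15* and *Wtap* had ratios of 0.37 and −1.81. Both had 20 or more input reads in each genotype. Of 20 markers of muscle, macrophages, endothelium and fibroblasts, 15 had any listed region and 0 had one outside gene bodies.

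Beside the miR-23b, miR-27b and miR-24 cluster, a region of 1145 bases started 501 bases after the *Mir24-1* hairpin (chr13:63301776-63302920). It held 1552 reads in flox/flox IP, 44 in its input, 1766 in BKO IP and 173 in BKO input. Fold enrichment dropped from 36.7 (24.1 to 55.7) to 9.94 (7.97 to 12.4) in BKO, for a log2 ratio of −1.88 (−2.57 to −1.20). IP was lower by 0.53 on the log2 scale and input higher by 1.35, so the ratio reflected more input as well as less IP. RefSeq places the region in *Fancc*, on the strand opposite to the hairpins, and the strand of the reads is unknown. Within 2 kb of other hairpins, the regions beside *Mir7658* and *Mir7078* had ratios of −2.13 (−2.79 to −1.46) and −3.19 (−4.99 to −1.39), on 96 and 6 flox/flox input reads. Those beside *Mir191* and *Mir425*, *Mirlet7e* and *Mir125a*, *Mir692-1* and *Mir3473c* had at most 6 flox/flox input reads and intervals that included 0.

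A pair of long non-coding RNAs was singled out after their values had been seen. *Rian*, an imprinted non-coding RNA of the *Dlk1*-*Dio3* domain (chr12:109660722-109661132), had 86 reads in flox/flox IP, 36 in its input, 570 in BKO IP and 81 in BKO input, with a log2 ratio of 1.45 (0.53 to 2.36). *Lncbate10*, a brown-fat-enriched long non-coding RNA of the mouse, held 2 regions. The first (chr18:61470130-61471106) had 2638, 254, 54 and 48 reads, with fold enrichments of 11 and 1.10 and a log2 ratio of −3.32 (−4.15 to −2.50). The second (chr18:61484286-61484766) had 1546, 86, 52 and 12 reads and a ratio of −2.24 (−3.56 to −0.93). Input at the 2 regions was also lower in BKO, by 2.98 and 3.34 on the log2 scale, so both the RNA in the input and its enrichment were lower at this locus.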

How the data were processed

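The libraries were m6A immunoprecipitated and input RNA from iBAT of each genotype, 1 library each, with mice pooled. Per the submitters' processing notes, reads were aligned with BWA (0.7.12-r1039) to GRCm38 and peaks were called with MACS2 (2.1.0). The deposited table of 10478 rows (9243 regions) holds, for each library, read counts and the authors' RPM, which were computed from the count plus 1. It also holds a fold enrichment in each genotype, the ratio of IP to input RPM as deposited, a peak mark for each genotype, and the authors' log2 fold change with its direction, which was not used. Columns marked CON were read as flox/flox and KO as BKO. 0 columns of library values were left out. The sources used here do not say how peaks were joined between genotypes, whether coordinates start at 0 or 1, or whether libraries kept strand.

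The log2 ratio was recomputed from the fold enrichments. Its 95% counting intervals take 2 reads as 1 fragment, with the added 1. Shares have Wilson intervals, and medians have order-statistic intervals over regions, which are not independent replicates (200 regions lay within 5 kb of another). The interval code was tested on simulated counts. Centres were laid over RefSeq genes (GRCm38.p6), with strand from the RefSeq promoter table or the deposited table.

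Regions were named, separately for both classes, among those with 20 or more input reads in each genotype and a called peak: the 5 largest decreases and increases, the 5 highest fold enrichments in each genotype, the 3 with the most flox/flox input, and those beside or within 5 kb of the listed genes. Members, lists and rules were chosen with earlier results of these data known. The steps of 500 and 1000 bases, the RefSeq classes, promoters and microRNAs were chosen after the table was seen. Alternatives were centring, the input minimum, adding 1 to fold enrichments, single reads as fragments, peaks called in both genotypes and other distances. Python 3.11.15, pandas 2.3.3, NumPy 2.4.6, SciPy 1.17.1 and Matplotlib 3.10.9 were used.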

Additional observations from a re-analysis of the deposited data

How the results depend on the processing

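No paired analysis was possible because each genotype had 1 IP and 1 input library, and leaving out a replicate was not possible either. Directions of the medians were kept under every alternative run, except that 5′-edge Intergenic regions, whose interval included 0, gave 0.98 after centring and 0.87 with 20 or more input reads in each genotype. Centring on the median of all regions (−1.05) moved the median log2 ratio to −0.62 for regions outside gene bodies, −0.64 with no gene named, −0.40 for Intergenic, −1.32 near RefSeq 3′ ends and −1.28 at 3′ edges. It moved the number of intervals below 0 to 287 and above 0 to 202, which turned the excess of decreases from 512 against 86 to a closer split. The centred counts were not made over all listed regions. With 20 or more input reads in each genotype the medians were −1.30 (all) and −1.27 (no gene named), the intervals 238 below and 56 above 0, and the called shares 82.1% in flox/flox and 71.7% in BKO. These are 60.7% below and 14.3% above, beside 57.3% and 16.8% of all regions at that depth, of which 81.8% and 77.1% were called. Adding 1 to fold enrichments gave −1.36 and −1.37. Regions called in both genotypes gave −1.46 over all, and regions whose centre lay in no RefSeq gene gave −1.98 with no gene named. Taking each read as 1 fragment gave 634 intervals below 0 and 130 above. Counting a region with any row outside gene bodies gave 1365 in place of 1159. Of all 1159, 5.87% lay within 5 kb downstream of a RefSeq gene, 2.24% within 1 kb and 7.68% within 10 kb. Of 54 named regions, 8 changed sign with centring, 7 of which had intervals that included 0 before it (*Cd46*, *Lamc3*, *Dram2*, *Wtap*, *Plin2* and the regions at *Cbx7* and *Mir425*), while the interval of *Gpr160* lay below 0 and its ratio went from −0.88 to 0.17. Adding 1 to fold enrichments changed the sign of 0. The RefSeq alternatives and those on the 3′ and 5′ edges were chosen after seeing the data. Input depth limits these values, since 537 of the regions had under 10 flox/flox input reads.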
